A study of Mus musculus with 6 samples.

Results

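The FOS, JUN and EGR transcription factors are the subject here, as expressed in the mouse cell line mDE6 with and without a hairpin against Arl4c. Their 10 genes were chosen by name, after gene identifiers had been matched to mouse symbols: Fos, Fosb, Fosl1 and Fosl2, Jun, Junb and Jund, and Egr1, Egr2 and Egr3. All 10 were found among the 22032 genes of the deposited table. RNA was sequenced from 3 libraries of mDE6 expressing a short hairpin RNA against Arl4c (shArl4c), and 3 expressing a control hairpin (shControl), whose columns in the table are named shluc. Arl4c encodes an ARF-like GTPase. The series title sets the line in a study of Arl4c in the tooth germ and in osteoblastic differentiation. The labels give no tissue of origin, culture condition or harvest time, tell apart 1 Arl4c hairpin group, and do not say whether the libraries of a group came from separate cultures. P-values therefore measure the spread between these libraries, which may be technical, and effects of less Arl4c cannot be told apart from other effects of the hairpin or of the cultures.

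FOS and JUN proteins carry a basic region and a leucine zipper, and a FOS-JUN or JUN-JUN dimer forms the activator AP-1, which binds DNA at AP-1 sites. EGR proteins bind GC-rich sites through zinc fingers. Many of these genes are immediate-early genes: growth factors, serum or stress switch them on within minutes, without new protein synthesis, through kinases such as ERK and JNK acting on factors bound at the promoter. Fosl1 and Fosl2 encode FRA1 and FRA2, which last longer than FOS after a stimulus, and JUND is present in resting cells. FRA2, JUNB and FRA1 are known in bone for their part in osteoblast function and matrix production.

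Libraries are named by the numbers in the deposited table: shArl4c 2, 3 and 4 and shControl 1, 2 and 3. Values are in CPM, the reads of a gene scaled to a common library size. The libraries held 12316770 to 14976113 reads, so that 1 read was worth 0.0672 to 0.0827 CPM. Arl4c stood at 6.75, 7.42 and 6.89 CPM in shArl4c 2, 3 and 4, against 20.7, 21.0 and 20.1 CPM in shControl 1, 2 and 3. That is 2.94-fold lower. Among the libraries, shArl4c 3 lay farthest from its own group. The chi-square of the counts, divided by its degrees of freedom, was 5.74 and 4.87 between shArl4c 3 and the other shArl4c libraries, 1.54 between shArl4c 2 and 4, and 1.78 to 2.30 between shControl libraries. Summed levels of mesenchymal markers were 18499 to 19338 CPM in shArl4c and 30488 to 31899 CPM in shControl, and those of epithelial markers 7.87 to 9.18 CPM in shArl4c and 9.15 to 12.4 CPM in shControl. Markers of leukocytes summed to 9.29 to 10.6 CPM in shArl4c and 6.87 to 8.05 CPM in shControl, and those of endothelial cells to 1.07 to 1.74 CPM in shArl4c and 1.48 to 2.07 CPM in shControl. The sums rest on 7 of 7 mesenchymal, 7 of 8 epithelial, 5 of 6 leukocyte and 3 of 4 endothelial markers, since Epcam, Cd3e and Cdh5 are not analysed here. The mesenchymal sum was mostly Col1a1 and Col1a2, which fell, as did Prrx1, while Pdgfra and Pdgfrb rose and Vim and Twist1 did not pass the test. Of the leukocyte markers, Cd68 alone was called, at 5.77 ± 0.207 CPM in shArl4c and 2.79 ± 0.397 CPM in shControl, Lyz2 and Csf1r did not pass, and Ptprc and Cd74 were below the filter on low values given below. Of the epithelial markers, Trp63 did not pass, the keratin genes were below that filter, and Cdh1 was at 0 in all shArl4c libraries. The part of these differences in the results was not tested.

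The FOS, JUN and EGR genes went different ways. Egr3, Egr1, Fosl1 and Fosl2 rose with the Arl4c hairpin, Junb and Jund fell, and Fos, Fosb, Jun and Egr2 did not pass the test. Genes were tested with limma on log2(CPM + 1), a scale that understates the change of low genes, and called at a Benjamini-Hochberg adjusted p under 0.05 over the 14740 genes that averaged 1 CPM or more. All 10 genes passed this filter. Of the 10, 6 were called, where 36.9% of all tested genes were called. The 4 that rose stand beside a background of 18.9% of tested genes called higher, and the 2 that fell beside 18.01% called lower. In the same 6 genes the 3 shArl4c values did not overlap the 3 shControl values, as was the case for 46.8% of all tested genes. Without shArl4c 3, the same count of 6 was called, where 45.1% of all tested genes were called. The median log2 fold change of the 10 genes was 0.18, against 0.01 over all tested genes, and the median size of the change, whatever its sign, was 0.21 against 0.15.

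**Figure D1:**
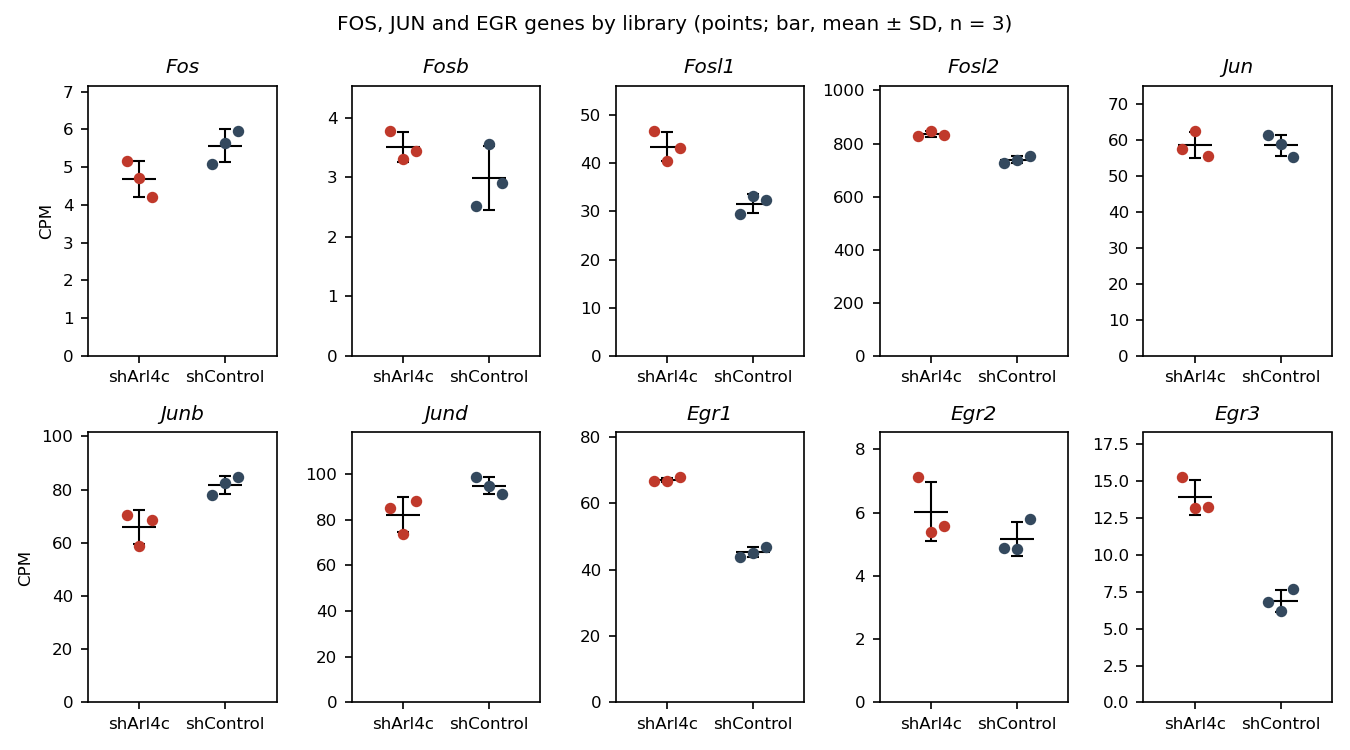
CPM (vertical axis, from 0) of each of the 10 genes in the 3 shArl4c and the 3 shControl libraries; points are libraries and bars are the mean and SD (n = 3). The points of the groups do not overlap for Fosl1, Fosl2, Junb, Jund, Egr1 and Egr3, with Egr3 at 13.2 to 15.2 CPM in shArl4c and 6.19 to 7.69 CPM in shControl.

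**Figure D2:**
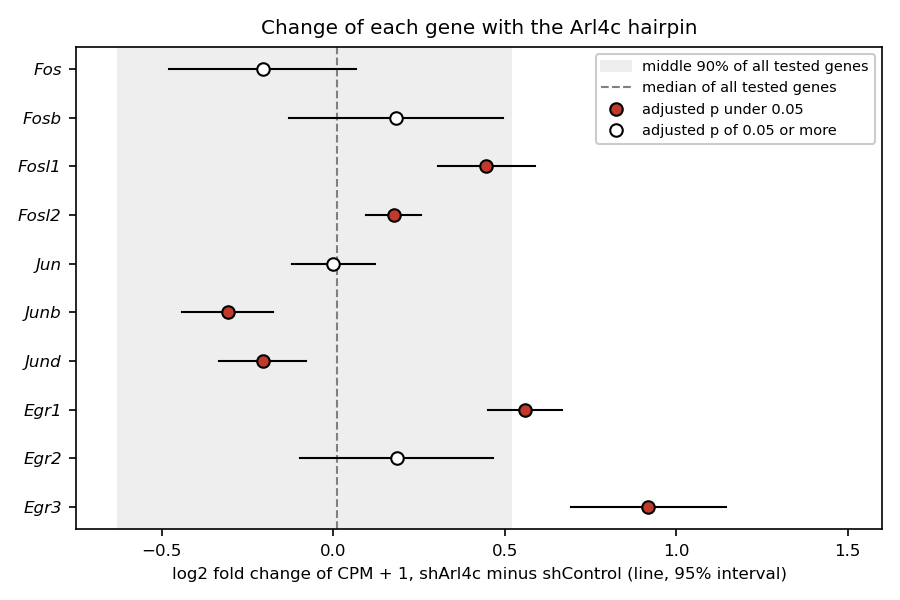
Log2 fold change of CPM + 1 (horizontal axis, shArl4c minus shControl) of each gene with its 95% interval from limma; filled points passed the test. Egr3 (0.92) and Egr1 (0.56) lie beyond the middle 90% of all tested genes, which runs from -0.63 to 0.52, and the other 8 genes lie within it.

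Promoter sequence was at hand in RefSeq (build GRCm38.p6) for 7 of the 10 genes, and not for Fosl1, Egr1 and Egr3. Each window ran from 250 bases before to 50 bases after an annotated start. Both strands were searched for the cAMP response element (CRE, TGACGTCA), its core TGACG (which every CRE also holds), the AP-1 site (TGANTCA), the EGR site (GCGNGGGCG) and the CArG box bound by the serum response factor SRF. The core was added to the search after the windows had been seen. The stretches below are the 150 bases before the start, 5′ to 3′ on the gene's own strand, with the matched letters in capitals. Fosl2 (chr5:32136322-32136471, plus strand) is shown because it rose and holds an EGR site, Junb (chr8:84978749-84978898, minus strand) because it fell, and Fos (chr12:85473740-85473889, plus strand) as the gene for which the immediate-early response is best known. Egr2 (chr10:67537719-67537868, plus strand) is shown for its CArG box, from the first of 3 overlapping windows that hold one together with a TGACG core.
Fosl2: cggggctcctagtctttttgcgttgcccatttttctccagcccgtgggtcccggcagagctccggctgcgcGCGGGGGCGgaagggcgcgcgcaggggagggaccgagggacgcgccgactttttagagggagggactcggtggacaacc
Junb: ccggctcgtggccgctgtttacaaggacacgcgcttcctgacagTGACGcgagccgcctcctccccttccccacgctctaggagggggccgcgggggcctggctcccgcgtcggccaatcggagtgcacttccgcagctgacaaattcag
Fos: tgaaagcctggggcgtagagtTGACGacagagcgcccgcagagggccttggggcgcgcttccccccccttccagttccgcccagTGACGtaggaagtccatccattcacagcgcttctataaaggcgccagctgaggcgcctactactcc
Egr2: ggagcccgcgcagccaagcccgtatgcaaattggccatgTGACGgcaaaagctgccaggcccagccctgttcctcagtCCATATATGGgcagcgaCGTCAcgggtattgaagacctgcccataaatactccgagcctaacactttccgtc

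The EGR site of Fosl2 lay at bases -79 to -71, counted back from the start. An EGR site with the same letters lay at -50 to -42 of Fosb. Such a site was found in 5.55% of all 32851 promoter windows of the table. The CArG box of Egr2 shown lay at -72 to -63, and 1.63% of all windows held one. The TGACG core was found in the windows of Fos, Fosb, Junb and Egr2 and in 20.8% of all windows. No window of the 7 genes held a full CRE or an AP-1 site, which were found in 1.79% and 7.81% of all windows, and the windows of Jun and Jund held none of the motifs. A match of letters does not show that a factor is bound there. Sequence outside the windows was not searched, for Fos as for the others, so a gene without a match may hold the motif farther away.

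Among the FOS genes, the 2 genes of the longer-lived proteins rose. Fosl1 (FRA1) stood at 46.7, 40.5 and 43.1 CPM in shArl4c 2, 3 and 4, against 29.5, 33.1 and 32.3 CPM in shControl 1, 2 and 3. Every shArl4c library was above every shControl library. The means were 43.4 ± 3.08 CPM in shArl4c and 31.6 ± 1.91 CPM in shControl (SD, n = 3 each, as for all values with ± here), 1.37-fold higher, and limma gave a log2 fold change of 0.45 with an SE of 0.07 and an adjusted p of 2.61e-05. Fosl1 shares 1163 of the 2033 bases of its annotated exons with Ccdc85b on the opposite strand. The sources used here do not say whether counting used the strand, so reads of the pair may not be told apart. Ccdc85b was also higher, at 47.9 ± 0.714 CPM in shArl4c and 39.9 ± 3.46 CPM in shControl, with a log2 fold change of 0.26 (limma adjusted p = 0.00297).

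Fosl2 (FRA2) had by far the most reads of the 10 genes. It stood at 827, 847 and 831 CPM in shArl4c 2, 3 and 4, against 727, 738 and 752 CPM in shControl 1, 2 and 3. The rise was small but the groups did not overlap. The mean was 835 ± 10.6 CPM in shArl4c and 739 ± 12.3 CPM in shControl, 1.13-fold higher, and limma gave a log2 fold change of 0.18 with an SE of 0.04 and an adjusted p of 0.00105.

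Fos and Fosb, whose transcripts appear and decay fastest after a stimulus, were at low levels in both groups. Fos stood at 5.15, 4.72 and 4.21 CPM in shArl4c 2, 3 and 4, against 5.09, 5.65 and 5.96 CPM in shControl 1, 2 and 3. The groups overlapped, since shArl4c 2 was above shControl 1. These values rest on 55 to 71 reads a library in shArl4c and 69 to 84 in shControl, and the log2 fold change was -0.21 with a 95% interval of -0.48 to 0.07 (limma adjusted p = 0.241). Fosb stood at 3.78, 3.30 and 3.44 CPM in shArl4c 2, 3 and 4, against 2.51, 3.56 and 2.90 CPM in shControl 1, 2 and 3, with overlapping groups. Its log2 fold change was 0.18, with an interval of -0.13 to 0.50 (limma adjusted p = 0.3796), and with a library left out it ran from 0.09 to 0.28. The interval of Fos leaves room for a fall larger than that of Junb and not for a rise like that of Fosl2, and the interval of Fosb leaves room for a rise as large as that of Fosl1.

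Among the JUN genes, Junb and Jund fell. Junb, which encodes a JUN protein that often acts against JUN on shared targets, stood at 70.6, 58.7 and 68.6 CPM in shArl4c 2, 3 and 4, against 78.1, 82.5 and 84.6 CPM in shControl 1, 2 and 3. All shArl4c values were lower than all shControl values, and shArl4c 3 was the lowest. The means were 65.96 ± 6.39 CPM in shArl4c and 81.7 ± 3.30 CPM in shControl, 1.24-fold lower, and limma gave a log2 fold change of -0.31 with an SE of 0.06 and an adjusted p of 0.000906. Without shArl4c 3 the log2 fold change was -0.23 (limma adjusted p = 8.90e-05, with a range of 2.56e-05 to 0.0317 over all alternatives). Junb shares 173 bases of exon with Prdx2 on the opposite strand, and Prdx2 was also lower, at 175 ± 19.5 CPM in shArl4c and 265 ± 8.51 CPM in shControl.

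Jund, the member of the family that resting cells keep, stood at 84.9, 73.6 and 88.2 CPM in shArl4c 2, 3 and 4, against 98.5, 94.9 and 91.2 CPM in shControl 1, 2 and 3. The groups did not overlap, shArl4c 4 came close to shControl 3, and shArl4c 3 was again the lowest. The means were 82.3 ± 7.68 CPM in shArl4c and 94.8 ± 3.64 CPM in shControl, 1.15-fold lower, and limma gave a log2 fold change of -0.21 with an SE of 0.06 and an adjusted p of 0.0126. The call was lost without shControl 1 (log2 fold change -0.18, limma adjusted p = 0.0757) and without trend and robust moderation in limma (adjusted p = 0.0985), and the adjusted p ranged from 0.00412 to 0.0985 over all alternatives. Without shArl4c 3 it was called, with a log2 fold change of -0.13. Jund shares 877 bases with the antisense gene Gm11175, which stood at 0.124 CPM in shArl4c and 0.177 CPM in shControl.

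Jun, the founding member of the family and a target of the kinase JNK, stood at 57.6, 62.6 and 55.6 CPM in shArl4c 2, 3 and 4, against 61.3, 59.0 and 55.4 CPM in shControl 1, 2 and 3. The groups lay on top of each other, with means of 58.6 ± 3.62 CPM in shArl4c and 58.6 ± 3.02 CPM in shControl. The 95% interval of the log2 fold change was -0.12 to 0.12 (limma adjusted p = 0.999), which does not hold the point values of Junb or Jund. The interval of Jund, -0.33 to -0.08, overlaps that of Jun, and differences between the genes were not tested. Jun shares 232 bases of exon with its antisense gene Junos, which stood at 0.898 ± 0.163 CPM in shArl4c and 1.12 ± 0.191 CPM in shControl.

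Egr3 and Egr1 had the largest log2 fold changes of the 10. Egr3 stood at 15.2, 13.2 and 13.2 CPM in shArl4c 2, 3 and 4, against 6.79, 6.19 and 7.69 CPM in shControl 1, 2 and 3. The lowest shArl4c library was well above the highest shControl library. Egr3 was 2.02-fold higher, at 13.9 ± 1.17 CPM in shArl4c and 6.89 ± 0.759 CPM in shControl, and limma gave a log2 fold change of 0.92 with an SE of 0.11 and an adjusted p of 1.29e-06. Egr1, the best-known factor of the family, stood at 66.6, 66.7 and 67.8 CPM in shArl4c 2, 3 and 4, against 43.9, 44.9 and 46.8 CPM in shControl 1, 2 and 3. Its libraries agreed closely within each group. The means were 67.1 ± 0.651 CPM in shArl4c and 45.2 ± 1.48 CPM in shControl, 1.48-fold higher, and limma gave a log2 fold change of 0.56 with an SE of 0.05 and an adjusted p of 4.61e-08.

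Egr2, known for its part in myelination and in hindbrain patterning, stood at 7.11, 5.40 and 5.59 CPM in shArl4c 2, 3 and 4, against 4.87, 4.84 and 5.79 CPM in shControl 1, 2 and 3. The groups overlapped, and shArl4c 2 was the highest of the 6 libraries. The log2 fold change was 0.18, with a 95% interval of -0.10 to 0.47 (limma adjusted p = 0.317). Without shArl4c 2 the log2 fold change of Egr2 was 0.08. The upper end of the interval lies below the point values of Egr1 and Egr3. The 95% interval of Egr1, 0.45 to 0.67, overlaps that of Egr2, and differences between the genes were not tested.

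Levels of different genes were compared as CPM per kb of annotated exon, since a longer transcript gives more reads. In shArl4c the order was Fosl2 (86.3 ± 1.10 CPM per kb), Jund (49.3 ± 4.601), Junb (28.7 ± 2.78), Fosl1 (21.4 ± 1.52), Jun (18.4 ± 1.13), Egr1 (14.95 ± 0.145), Egr3 (3.15 ± 0.266), Fos (1.996 ± 0.201), Egr2 (1.78 ± 0.277) and Fosb (0.562 ± 0.0392), all in CPM per kb. Of neighbours in this order, Fos and Egr2 were the pair whose library ranges overlapped. In shControl the order had Jun (18.4 ± 0.945 CPM per kb) ahead of Fosl1 (15.5 ± 0.937) and Fos (2.37 ± 0.186) ahead of Egr3 (1.56 ± 0.172), and Egr3 and Egr2 (1.52 ± 0.159 CPM per kb) overlapped. The exon lengths come from an annotation of all isoforms together, which makes genes with rarely used exons look lower.

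Fosl2 made up most of the FOS family in each library. Its share of the family's summed CPM per kb was 78.3 ± 1.37% in shArl4c and 80.6 ± 0.834% in shControl, and that of Fosl1 was 19.4 ± 1.26% in shArl4c and 16.4 ± 0.662% in shControl. The share of Fos was 1.81 ± 0.168% in shArl4c and 2.50 ± 0.138% in shControl. Of the JUN family, Jund gave 51.1 ± 1.70% in shArl4c and 51.3 ± 1.19% in shControl, and Junb 29.7 ± 1.11% in shArl4c and 32.1 ± 1.77% in shControl. Of the EGR family, Egr1 gave 75.2 ± 2.12% in shArl4c and 76.6 ± 1.41% in shControl, and Egr3 15.8 ± 0.960% in shArl4c and 11.9 ± 0.840% in shControl. Summed CPM, without regard to length, was 887 ± 7.84 in shArl4c and 779 ± 14.4 in shControl for the FOS genes. For the JUN genes it was 207 ± 10.3 in shArl4c and 235 ± 3.57 in shControl, and for the EGR genes 87.0 ± 1.88 in shArl4c and 57.3 ± 2.64 in shControl. These sums and shares are given as descriptions, with no test.

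**Figure D3:**
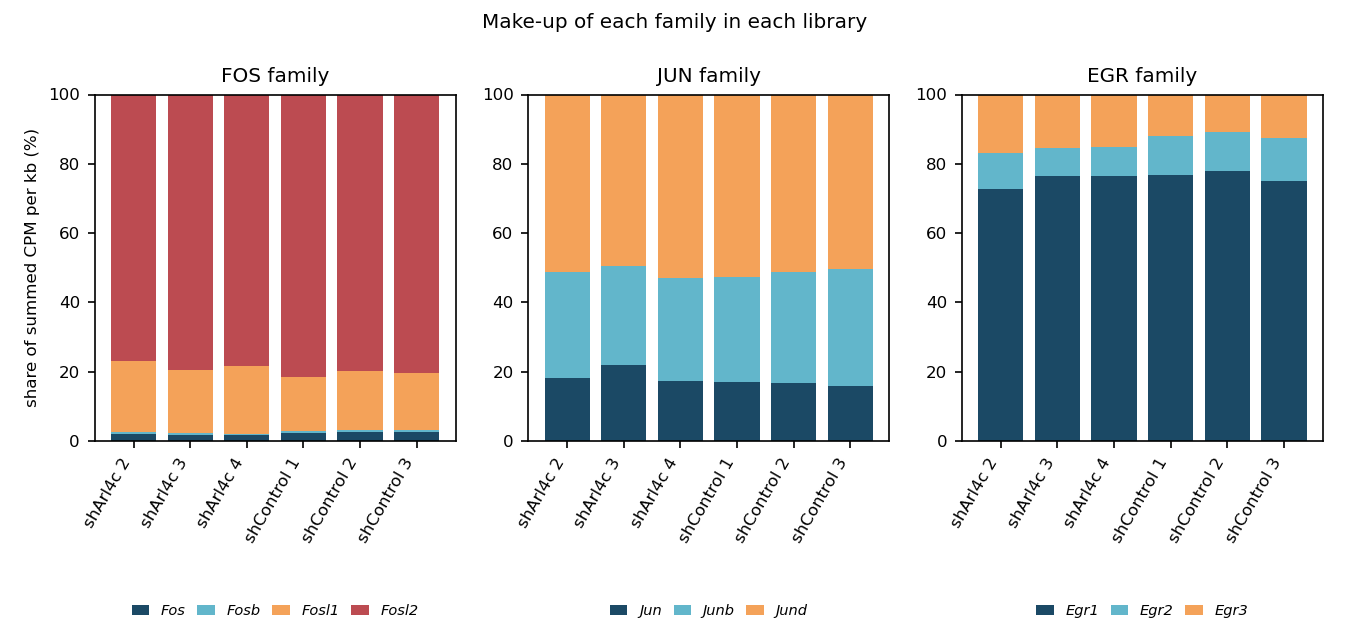
Share of each gene in its family's summed CPM per kb of exon (vertical axis, %) in each of the 3 shArl4c and 3 shControl libraries (horizontal axis), for the FOS, JUN and EGR families. Fosl2 takes 76.8% to 79.6% of the FOS family in shArl4c and 79.9% to 81.5% in shControl, and Jund and Egr1 are the largest parts of the JUN and EGR families in every library.

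Partners and relatives of these factors changed in both directions. Of 16 genes that encode dimer partners of FOS and JUN or relatives and inhibitors of EGR, 12 were tested, of which 4 rose, 5 fell and 3 did not pass, so that 9 of 12 were called, where the share over all tested genes was 36.9%. Over the list, log2 fold changes had a median of 0.03. Nab2, a corepressor that EGR proteins induce and that holds them back, rose to 101 ± 6.91 CPM in shArl4c, against 76.7 ± 2.71 CPM in shControl (log2 fold change 0.39, limma adjusted p = 6.97e-06). Its relative Nab1 rose 1.25-fold and Maff, a small MAF protein, 1.35-fold. Atf3, a stress-induced partner of JUN, fell the most of the list, to 3.25 ± 0.539 CPM in shArl4c, against 11.1 ± 0.705 CPM in shControl, 3.42-fold lower (limma log2 fold change -1.52, adjusted p = 1.46e-08). Atf4, which governs the amino acid response and regulates Atf3, fell to 279 ± 10.9 CPM in shArl4c, against 362 ± 8.53 CPM in shControl. Jdp2, a repressor that dimerizes with JUN, fell 1.296-fold. Nab1, Maff and Jdp2 were chosen after their values were seen.

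Other immediate-early genes moved in both directions. Of 32 tested, 11 rose, 11 fell and 10 did not pass, so that 68.75% were called against 36.9% of all tested genes. Without shControl 1, 10 rose and 7 fell, or 53.1% called against 29.8% of all tested genes. Without shArl4c 2, 9 rose and 12 fell, or 65.6% called against 32.3% of all tested genes. Over the list, log2 fold changes had a median of -0.03. Sgk1, a serum-induced kinase, rose to 257 ± 8.13 CPM in shArl4c, against 174 ± 7.41 CPM in shControl (limma adjusted p = 4.71e-09), and Trib1, a pseudokinase, to 62.9 ± 3.02 CPM in shArl4c, against 39.0 ± 0.246 CPM in shControl. Ccn2, a matricellular protein gene induced by YAP and by SRF, fell to 97.4 ± 4.21 CPM in shArl4c, against 155 ± 9.89 CPM in shControl (log2 fold change -0.66, limma adjusted p = 3.35e-09). Its relative Ccn1 fell to 196 ± 7.26 CPM in shArl4c, against 279 ± 12.0 CPM in shControl. Arc, known for its part at synapses, rose to 20.8 ± 2.01 CPM in shArl4c, against 10.6 ± 0.179 CPM in shControl. The orphan nuclear receptor gene Nr4a1 fell to 18.2 ± 2.09 CPM in shArl4c, against 25.6 ± 0.882 CPM in shControl. Ier2 (log2 fold change -0.02) and Dusp1 (-0.17, limma adjusted p = 0.0587), which respond to stimuli much as Fos does, did not pass. Ccn1, Arc, Nr4a1, Ier2 and Dusp1 were chosen after their values were seen.

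Genes of ERK output and feedback numbered 14, all tested, of which 7 rose, 3 fell and 4 did not pass. The called share was 71.4%, against 36.9% of all tested genes, of which 18.9% rose and 18.01% fell. Over the list, log2 fold changes had a median of 0.19. Phlda1 rose to 38.5 ± 2.60 CPM in shArl4c, against 22.8 ± 0.675 CPM in shControl (log2 fold change 0.73, limma adjusted p = 4.85e-08). Dusp5, a phosphatase that removes phosphate from ERK in the nucleus, rose to 19.98 ± 0.625 CPM, against 12.6 ± 0.608 CPM in shControl. The ETS factor gene Etv1 rose 2.16-fold and the ERK phosphatase genes Dusp4 and Dusp6 1.498-fold and 1.21-fold. Spry1, an inhibitor of receptor tyrosine kinase signalling, went the other way, at 1.92 ± 0.0432 CPM in shArl4c, against 7.37 ± 0.166 CPM in shControl, 3.85-fold lower (limma adjusted p = 2.31e-08). Etv5, a relative of Etv1, and Spry4, a relative of Spry1, also fell (log2 fold changes -0.28 and -0.47, limma adjusted p = 0.00812 and 0.0414). Spry4 rests on only 16 to 38 reads a library, and Spry1 on 25 to 27 reads a library in shArl4c. Etv1, Dusp4, Dusp6, Etv5 and Spry4 were chosen after their values were seen.

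Kinases and promoter factors that act on these genes were called at a share near that of all genes. Of 19 tested, 3 rose, 4 fell and 12 did not pass, or 36.8% called against 36.9% of all tested genes, and the median log2 fold change was -0.00371. The count called ran from 4 to 12 over the alternatives, where the share over all tested genes ran from 25.2% to 46.7%. With CPM by plain library total, 6 of the list rose and 3 fell. Under that scaling 3419 of all tested genes rose and 2341 fell, against 2790 and 2655 in the main fit. Srf fell to 62.1 ± 1.71 CPM in shArl4c, against 80.3 ± 3.08 CPM in shControl (log2 fold change -0.37, limma adjusted p = 7.55e-06). Mrtfa, an actin-regulated coactivator of SRF, fell to 227 ± 4.96 CPM, against 272 ± 2.49 CPM in shControl. Elk4, an ETS factor that works with SRF at promoters of the Fos kind, rose to 145 ± 2.35 CPM in shArl4c, against 122 ± 2.30 CPM in shControl. Mapk3, which encodes ERK1, rose 1.21-fold and Mapk14 1.09-fold, while Map2k1 and Elk1 fell 1.14-fold and 1.11-fold. Transcript levels say nothing of whether these kinases were active. Mapk3, Mapk14, Map2k1 and Elk1 were chosen after their values were seen.

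Genes known as targets of AP-1 or EGR proteins in other settings numbered 26, and 24 were tested, of which 12 rose, 3 fell and 9 did not pass. The called share was 62.5%, beside 36.9% of all tested genes, of which 18.9% rose and 18.01% fell. Over the list, log2 fold changes had a median of 0.23. Spp1, the bone matrix protein osteopontin, rose to 766 ± 31.3 CPM in shArl4c, against 372 ± 10.9 CPM in shControl. Hmga2, an architectural chromatin protein, rose to 142 ± 2.59 CPM in shArl4c, against 64.3 ± 3.19 CPM in shControl (limma log2 fold change 1.13, adjusted p = 4.80e-13), and its relative Hmga1, for which FOS and JUN factors are known regulators, 2.06-fold. Plau, the urokinase gene, rose to 71.6 ± 3.78 CPM in shArl4c, against 39.8 ± 1.45 CPM in shControl. The matrix metalloproteinase genes Mmp3, Mmp10 and Mmp13 rose 4.002-fold, 2.57-fold and 1.42-fold, the first to 5.81 ± 0.704 CPM, against 1.45 ± 0.690 CPM in shControl.

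The 2 platelet-derived growth factor genes of the target list moved apart. Pdgfb rose to 11.1 ± 1.05 CPM in shArl4c, against 3.43 ± 0.125 CPM in shControl, 3.25-fold higher (limma adjusted p = 1.05e-08). Pdgfa, a gene with EGR sites in its promoter, fell to 18.4 ± 0.796 CPM in shArl4c, against 30.2 ± 0.637 CPM in shControl, 1.64-fold lower (limma adjusted p = 1.79e-07). The Mmp genes, Hmga1 and the Pdgf genes were chosen after their values were seen. Whether any of these genes was bound by an AP-1 or EGR factor in mDE6 was not measured.

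**Figure D4:**
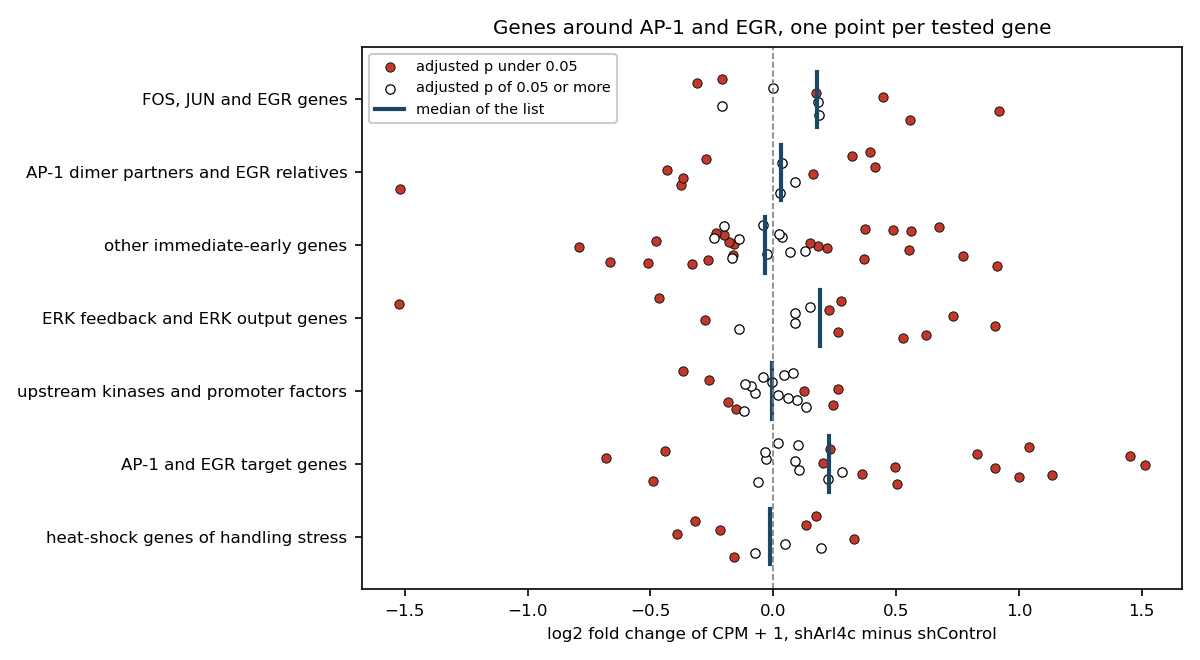
Log2 fold change of CPM + 1 (horizontal axis, shArl4c minus shControl) of every tested gene in the 10 FOS, JUN and EGR genes and in 6 lists of related genes; filled points passed limma's test and the bar is the list's median. The medians lie at 0.23 for target genes and 0.19 for ERK feedback genes, and between -0.03 and 0.03 for the other 4 related lists.

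Heat-shock genes, known to respond to stress and handling, moved in both directions, and their part in the changes above was not tested. Of 10 tested, 3 rose, 4 fell and 3 did not pass, with 70.0% called against 36.9% of all tested genes. Over the list, log2 fold changes had a median of -0.01. With CPM by plain library total, 4 of the list rose and 3 fell, while 3419 of all tested genes rose and 2341 fell. Hsp90aa1, a cytosolic chaperone, rose to 990 ± 40.5 CPM in shArl4c, against 787 ± 19.3 CPM in shControl (log2 fold change 0.33, limma adjusted p = 2.91e-06). Hspb1, a small heat-shock protein, fell to 131 ± 10.8 CPM in shArl4c, against 163 ± 6.75 CPM in shControl, and Hsph1, a cochaperone of HSP70, rose 1.13-fold. The stress-inducible HSP70 genes were lower: Hspa1a stood at 8.87 ± 1.25 CPM in shArl4c and 12.0 ± 2.02 CPM in shControl, and Hspa1b at 48.4 ± 3.93 CPM in shArl4c and 56.3 ± 2.73 CPM in shControl. These near-identical copies may share reads, and both were chosen after their values were seen. The call count of this list was 4 of 10 without shControl 1, where 29.8% of all tested genes were called. Without trend and robust moderation it was 3 of 10, near the 30.5% of all tested genes called under that setting.

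For the called gene with the largest change in each family, the genes with the most similar profile over the 6 libraries were sought among 10363 others with a mean of at least 5 CPM. Likeness was the Euclidean distance between log2(CPM + 1) profiles, each centred on its own mean. For Egr3 the nearest were Ifi47, an interferon-induced GTPase gene, at a distance of 0.0908, and Mtmr10, of the myotubularin family, at 0.159. For Fosl1 they were Timeless, a replication fork protein gene, at 0.0357, and Chtf18, a clamp loader subunit gene, at 0.0691. For Junb they were Selenos, a selenoprotein gene of the endoplasmic reticulum, at 0.0631, and Atp6v0a2, a proton pump subunit gene, at 0.0666. Timeless had 63.5, 55.2 and 58.5 CPM in shArl4c 2, 3 and 4, against 41.1, 44.6 and 43.9 CPM in shControl 1, 2 and 3. It was picked for its likeness to Fosl1 over these libraries, so a shared order of libraries is no added result.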

How the data were processed

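RNA from 3 shArl4c and 3 shControl libraries of mDE6 was sequenced after TRIzol extraction and a directional MGI library kit, per the labels' protocols. Values in CPM, scaled by the authors, were deposited as 1 table. The submitters' processing notes name build GRCm39 and the tools edgeR, Bowtie2, RSEM 1.3.0 and Trimmomatic 0.38, with no role, order or strand setting. Columns were tied to groups by name: shluc was taken as shControl, and a misspelt Arl4c hairpin as shArl4c. None could be tied to a single sample.

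Every value was a whole multiple of its column's smallest (100% of values, within 0.001 of a read), so reads were recovered. The smallest total of a listed gene was 6 reads. Of 22032 identifiers, 21880 matched a symbol. Exon lengths and overlaps came from GENCODE vM21 and promoters from RefSeq, both of the older build GRCm38, so no coordinates of different builds were combined.

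The 14740 genes that averaged 1 CPM or more were fitted as log2(CPM + 1) with limma 3.58.1 in R 4.3.3, with intensity trend and robust moderation and no covariate, and p-values were adjusted over all of them. Alternatives were pseudocounts of 0.5 and 5, no filter or one at 5 CPM, other scalings and moderation, each library left out, and edgeR 4.0.16 and DESeq2 1.42.0 on recovered reads, which called 5376 and 4108 genes against 5445 by limma. The steps were tested on simulated counts, where the share of false calls was well above the nominal one and many small changes were missed.

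The 10 genes, the 6 lists of related genes and the tests were chosen with earlier results of these data known. Named genes were the 10, Arl4c, the 3 called genes with the smallest p in each list, and the 2 nearest profiles per family. Other genes are marked in the text, apart from those that overlap one of the 10. The TGACG motif and the chi-square check were added after seeing the data.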

Additional observations from a re-analysis of the deposited data

How the results depend on the processing

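Of the 10 FOS, JUN and EGR genes, 6 were called under 15 of 17 alternatives and 5 under the others, without shControl 1 and without trend and robust moderation, where Jund was lost (log2 fold changes of -0.18 and -0.21). No gene of the 10 changed sign with a call, and Fos, Fosb, Jun and Egr2 were called under none. Log2 fold changes ran from 0.67 to 1.01 for Egr3, 0.52 to 0.59 for Egr1, 0.39 to 0.49 for Fosl1, 0.16 to 0.21 for Fosl2, and -0.36 to -0.23 for Junb. Fosb had no value with the filter at 5 CPM. With that filter, 7 of 11 tested genes of ERK output and feedback were called, where 42.9% of all tested genes were. Without it, 10 of 14 were called in the main fit. The count was 7 of 14 with DESeq2 and without shControl 1, where 27.9% and 29.8% of all tested genes were called. The count over all genes ran from 4108 to 6885. The share of tested genes called ran from 25.2% with no filter to 46.7% with array weights. Of the list of kinases and promoter factors, 4 genes were called without trend and robust moderation and 12 with array weights, against 7. Over all tested genes, 30.5% were called without trend and robust moderation and 46.7% with array weights, against 36.9%. Of heat-shock genes, 3 were called without trend and robust moderation and 4 to 7 with a library left out, against 7. With a library left out, 29.5% to 45.1% of all tested genes were called. Without scaling for length, Fosl2 gave 94.2% of the FOS family in shArl4c and 94.8% in shControl, Jund 39.7% of the JUN family in shArl4c and 40.3% in shControl, and Egr1 77.1% of the EGR family in shArl4c and 79.0% in shControl. TMM factors recomputed from the reads gave the same log2 fold changes for the 10 genes and the same count of 5445 genes, so this alternative is not a separate check. No paired analysis was possible because the columns, numbered 2 to 4 and 1 to 3, could not be tied to the samples, numbered 1 to 3 in each group. Fos, Fosb and Egr2 rest on under 100 reads a library, and changes of any size within their 95% intervals remain possible. Egr3, with 92 or 93 reads in each shControl library, was called.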
